A study of Mus musculus with 23 samples.

Results

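Genes of B cells and immunoglobulins, 9 in all, were followed across 23 libraries of the B16F10 melanoma series. They were Cd79a, Cd79b, Ms4a1, Pax5, Ighm, Ighd, Igkc, Jchain and Mzb1, chosen by name, and each matched 1 of the 47643 genes in the table. The values are TPM, a transcript abundance scaled for gene length and for the total of each library, so that levels of different genes can be compared within a library.

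B16F10 is a melanoma cell line from C57BL/6 mice, and the study asked how the nuclear receptor NR2F6 in tumor cells affects immunity against the tumor. Control cells (NR2F6 wild type) or cells edited with CRISPR guide sg492 or sg495 against Nr2f6 were studied as bulk tumors, as tumor cells purified from them on magnetic columns, and in culture, with 2 libraries for each guide in each sample type. The methods describe injection under the skin of male C57BL/6 mice aged 6 to 8 weeks, whose own cells were not edited. Another 5 libraries carry the cell line label B16F10, an NR2F6 wild-type genotype and the group IgG Control (2 libraries) or anti-PD1 (3 libraries), an antibody against the inhibitory T cell receptor PD-1. The labels do not say whether these 5 came from whole tumors or from cells isolated from them, and whether replicates came from separate animals is not stated, so p-values measure the spread between these libraries. In bulk RNA, fewer cells of a type and less RNA per cell cannot be told apart.

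B cells recognize antigen through a membrane immunoglobulin built of heavy and light chains, which signals through the CD79A and CD79B subunits. PAX5 is the transcription factor that maintains B cell identity, and MS4A1 (CD20) is a surface protein of mature B cells. Naive B cells make heavy chains of the IgM and IgD classes, and after activation some become plasma cells, which secrete antibody with the help of the joining chain JCHAIN and the endoplasmic reticulum protein MZB1.

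The 5 IgG and anti-PD1 libraries differed from bulk tumors far beyond the B cell genes. Of 13893 genes tested, 15.6% were called higher and 42.8% lower in the 5 than in the 6 bulk tumor libraries, with a median log2 fold change of -0.48. With median-of-ratios scaling, 3067 genes were called higher and 3298 lower, against 2172 and 5946 on TPM. The 10 leukocyte genes of a fixed list summed to between 3035 and 6899 TPM in the 5 libraries and to between 224 and 568 TPM in bulk tumors. All 8 melanocyte genes and all 8 fibroblast genes tested were called lower in the 5 libraries. Mitochondrial genes took 8.63% to 21.9% of the TPM in the 5 libraries and 4.73% to 6.70% in bulk tumors, and 13794 to 19334 genes were above 0 TPM against 20075 to 20768. IgG library 2 had the fewest. The labels name no batch or preparation within either set, so the set and the antibody treatment cannot be told apart. Nr2f6 itself was at 25.2 to 25.8 TPM in control, 22.3 to 23.3 in sg492 and 15.8 to 17.2 in sg495 bulk tumors.

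In GENCODE (GRCm38, the build named mm10), Cd79a lies at chr7:24897381-24902197 on the plus strand and Cd79b at chr11:106311341-106314762 on the minus strand. Cd79a had the highest median of the 9 genes in cultured melanoma cells, with 0.19 to 1.03 TPM (median 0.655, n = 6). In cultured sg495 replicate 1, Mzb1 was above it, at 0.23 against 0.19 TPM. Sorted tumor cells had 2.26 to 4.16 TPM (median 2.75, n = 6), and all 6 lay above all 6 cultured libraries, as did 18.9% of 12574 genes averaging 1 TPM or more over those 12 libraries. Ptprc, which encodes the leukocyte surface protein CD45, was at or below 0.15 TPM in the sorted libraries, and Ighm was listed at 0 in all 6.

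The sequence before the Cd79a gene is shown because this gene alone among the members was above 0 TPM in all 23 libraries. The promoter table of RefSeq (build GRCm38.p6) held 3 of the 9 members, Cd79a, Pax5 and Jchain. In the Cd79a sequence from chr7:24897247-24897380, plus strand, written 5′ to 3′ up to the base before the GENCODE gene, capitals mark a CAGGTG box, the kind of motif bound by E proteins:
Cd79a: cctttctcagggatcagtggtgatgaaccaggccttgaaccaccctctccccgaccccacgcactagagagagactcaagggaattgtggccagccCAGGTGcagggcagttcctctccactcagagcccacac
The box began 154 bases before the RefSeq start. On either strand, CAGGTG occurred in 17.2% of all 32851 promoter windows of 250 bases. The octamer ATTTGCAT (in 1.60% of windows) and the palindrome CACGTG (6.02%) had no match in the 3 members' windows, and CAGGTG had none in Pax5 or Jchain. No match overlapped another, and a match of letters says nothing on binding.

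In bulk tumors Cd79a overlapped its level in sorted cells. It was at 3.26 and 1.92 TPM in control, 2.33 and 2.13 in sg492, and 1.61 and 1.87 in sg495 bulk tumors. In the IgG libraries it was at 0.78 and 4.66 TPM, and in the anti-PD1 libraries at 1.03, 2.18 and 0.71. The sets overlapped on both sides, and the log2 fold change of the 5 against the 6 libraries was -0.29 (SE 0.315, limma, adjusted p = 0.416). Without IgG library 2 it was -0.58 (adjusted p = 0.0386), still under the fold limit for a call. Per 100 TPM of Ptprc, Cd79a stood at 7.13 to 35.1 TPM in bulk tumors and at 0.282 to 1.71 TPM in the 5 libraries.

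Cd79b, the partner subunit, was near 0 in tumor cells. It was listed at 0 in 5 of 6 cultured and 4 of 6 sorted libraries and never above 0.21 TPM there. Bulk tumors had 0.23 and 0.30 TPM in control, 0.45 and 0.44 in sg492, and 0.37 and 1.06 in sg495. The IgG libraries had 8.49 and 6.14 TPM, and the anti-PD1 libraries 6.18, 3.40 and 4.0. Every IgG and anti-PD1 library lay above every bulk tumor, as for 13.5% of all genes tested, and Cd79b rose by a log2 fold change of 2.14 (SE 0.204, limma, adjusted p = 1.83e-05; exact permutation test, 2-sided p = 0.00216, the smallest that 462 splits allow).

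**Figure D1:**
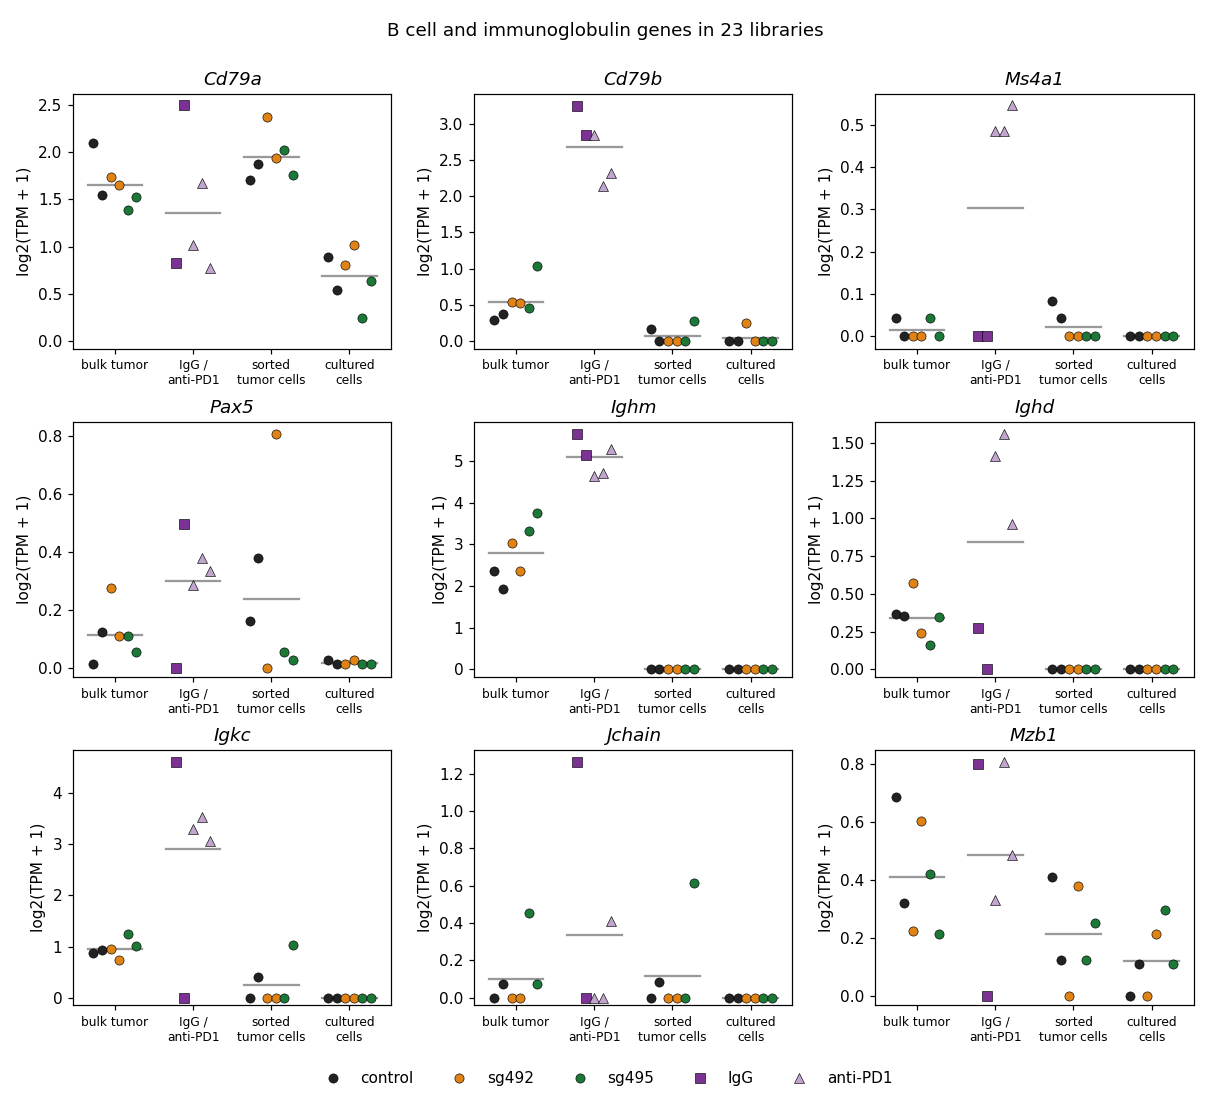
Level of each of the 9 genes on the log2(TPM + 1) scale (vertical axis, its own range in each panel) in bulk tumors, IgG and anti-PD1 libraries, sorted tumor cells and cultured cells. Points are libraries, colored by guide or antibody, and grey lines are means of a set. Ighm and Cd79b have every IgG and anti-PD1 library above every bulk tumor, and Cd79a is above 0 in all 23 libraries.

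Ighm, the constant region gene of the IgM heavy chain, was the highest member in both sets (chr12:113418558-113422730, minus strand). It was listed at 0 in all 12 sorted and cultured libraries. In bulk tumors it was at 4.13 and 2.83 TPM in control, 7.13 and 4.18 in sg492, and 8.97 and 12.43 in sg495. In the IgG libraries it was at 49.33 and 34.12 TPM, and in the anti-PD1 libraries at 24.12, 25.25 and 37.81. The lowest of the 5 was above the highest bulk tumor, and the log2 fold change was 2.29 (SE 0.195, limma, adjusted p = 9.96e-06; exact permutation test, 2-sided p = 0.00216).

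Ighd, the IgD heavy chain gene next to Ighm (chr12:113406604-113416324, minus strand), had a different order. Bulk tumors had 0.12 to 0.49 TPM (median 0.275, n = 6). The IgG libraries had 0.21 TPM and a value listed at 0, while the anti-PD1 libraries had 1.66, 1.95 and 0.95 TPM. All 3 anti-PD1 libraries were therefore above both IgG libraries and above all bulk tumors. The share of all genes with this order was not computed. At these levels Ighd did not pass the minimum mean of 1 TPM over the 11 libraries. Fitted without that minimum, its log2 fold change for the 5 against the 6 libraries was 0.50 (SE 0.132, limma, adjusted p = 0.0151), under the 1.5-fold limit for a call, with an exact permutation p of 0.132 (2-sided).

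Igkc, the constant region gene of the kappa light chain (chr6:70726435-70726966, plus strand), was high in 4 of the 5 libraries. It was at 0.67 to 1.37 TPM in bulk tumors (median 0.92, n = 6). The IgG libraries stood apart from each other, with 23.49 TPM in library 1 and a value listed at 0 in library 2, while the anti-PD1 libraries had 8.89, 10.67 and 7.42 TPM. The log2 fold change was 1.95 (SE 0.670, limma, adjusted p = 0.0250; exact permutation test, 2-sided p = 0.0346). This call was lost with a pseudocount of 0.1 (adjusted p = 0.128), without the expression minimum (adjusted p = 0.0614), against control bulk tumors alone (adjusted p = 0.140) and without any 1 of the anti-PD1 libraries (adjusted p = 0.0518 to 0.0675). Without IgG library 2 the log2 fold change was 2.68 (adjusted p = 3.42e-06). Igkc lies within the span of Gm30211 on the same strand, so reads may have been divided between both.

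Ms4a1 and Pax5 were low throughout. Ms4a1 was at 0.03 TPM in 2 bulk tumors and listed at 0 in the other 4 and in both IgG libraries. The anti-PD1 libraries had 0.40, 0.40 and 0.46 TPM. Thus all 3 anti-PD1 libraries were above all bulk tumors and both IgG libraries for Ms4a1 too, with an exact permutation p for the 5 against the 6 libraries of 0.0606 (2-sided). Pax5 was at 0.01 to 0.21 TPM in bulk tumors, at 0.22, 0.30 and 0.26 in the anti-PD1 libraries, and at 0.41 in IgG library 2, and it was listed at 0 in IgG library 1 (exact permutation p = 0.0649, 2-sided). The highest Pax5 value of the series, 0.75 TPM, was in a sorted library of sg492. Pax5 overlaps 3 genes on the opposite strand and 1 on its own.

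The plasma cell members did not separate the sets. Jchain was at or below 0.37 TPM in bulk tumors and listed at 0 in 3 of the 5 IgG and anti-PD1 libraries, with 1.40 TPM in IgG library 1 and 0.33 in anti-PD1 library 3 (exact permutation p = 0.424, 2-sided). Mzb1 was at 0.16 to 0.61 TPM in bulk tumors and at 0 to 0.75 TPM in the 5 libraries (exact permutation p = 0.645, 2-sided). Mzb1 overlaps a gene on the same strand.

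Of the 9 members, 4 reached a mean of 1 TPM over the 11 libraries, and 3 of them, Cd79b, Ighm and Igkc, were called higher, beside 15.6% of all genes. Cd79b and Igkc passed the minimum only through the IgG and anti-PD1 side, so this count carries no weight of its own. The median log2 fold change of these 4 was 2.04, beside -0.48 for all genes tested. That of all 9 members was 0.29, beside -0.10 for the 26725 genes fitted without the minimum. Between libraries without guides or anti-PD1, IgG against control bulk tumors, 17.3% of genes were called higher and 38.5% lower. Ighm rose by a log2 fold change of 3.25 (SE 0.322, adjusted p = 6.85e-05) and Cd79b by 2.7 (SE 0.336, adjusted p = 0.000215), while Igkc (1.41, adjusted p = 0.293) and Cd79a (-0.15, adjusted p = 0.814) were not called. This comparison shares its libraries with that of the 5 against the 6.

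Relative to the leukocyte gene Ptprc, no member was higher in all 5 libraries than in all bulk tumors. Per 100 TPM of Ptprc, Ighm was at 26.2 to 51.7 TPM in bulk tumors (median 48.4) and at 12.5 to 30.5 TPM in the 5 libraries (median 15.0). Cd79b overlapped, with 2.04 to 5.23 TPM in bulk tumors and 1.59 to 7.13 in the 5 libraries. Igkc ran from 3.85 to 15.7 TPM and from 0 to 14.5 TPM. Each library was also centered on its 10 leukocyte genes with a pseudocount of 0.1, a choice made after seeing the data. The log2 fold change was then -1.22 for Ighm and -0.32 for Cd79b, against 2.48 and 3.37 with that pseudocount and no centering. This centering lowered nearly all genes, with a median of -4.25 and 13021 of 13893 called lower, so both members lay above the median gene and their values are relative to leukocyte genes only. The 10 leukocyte genes themselves were all called higher on TPM (15.6% of all genes were), with a median log2 fold change of 3.76.

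**Figure D2:**
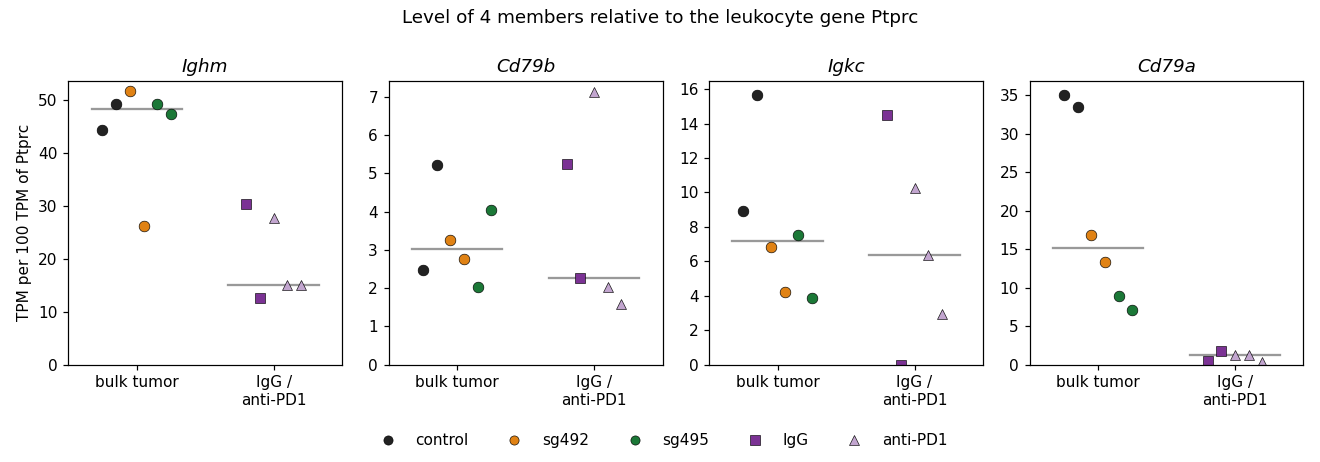
TPM of Ighm, Cd79b, Igkc and Cd79a per 100 TPM of Ptprc (vertical axis) in 6 bulk tumors and 5 IgG and anti-PD1 libraries. Points are libraries and grey lines medians. Cd79a is lower in all 5 libraries (median 1.19) than in all bulk tumors (15.1). Its level in sorted tumor cells, not shown here, was 2.26 to 4.16 TPM, so its ratio does not isolate B cells. Ighm has medians of 15.0 and 48.4, and the sets overlap for Ighm, Cd79b and Igkc.

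The ratio of heavy to light chain also varied within each set. Ighm was 3.14 to 12.3 times Igkc in bulk tumors. In the 4 libraries with Igkc above 0 on the other side it was 2.10 to 5.10 times. IgG library 2, with 34.12 TPM of Ighm, had no Igkc value above 0.

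Switched immunoglobulin classes were low or rested on single libraries. Ighg1, the IgG1 heavy chain gene, was at 13.79 TPM in IgG library 1 and listed at 0 in the other 10 of the 11 libraries (limma, log2 fold change 0.78, SE 0.582, adjusted p = 0.251). That library also had the highest Igkc and Jchain values. Ighg2c was at 0 to 1.48 TPM in bulk tumors and 0 to 1.06 in the 5 libraries. Ighg2b did not exceed 0.37 TPM, Ighg3 0.21 and Igha 0.41 in the 11 libraries, and Ighe was listed at 0. The lambda light chain genes Iglc1, Iglc2 and Iglc3 were at most 0.58, 1.43 and 2.03 TPM, with the highest values in anti-PD1 libraries.

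Each B cell expresses a rearranged variable gene with a constant region. Many clones can use the same variable gene, so the number of variable genes does not count clones. Of 348 variable genes in the table, 3 to 6 were above 0 TPM in each bulk tumor and none reached 1 TPM, with summed levels of 0.69 to 2.19 TPM. In the 5 libraries 1 to 20 were above 0, 14 reached 1 TPM in at least 1 library, and the sums ran from 5.67 to 19.74 TPM. Most were seen in a single library, since 3 of 41 in the 5 libraries and 3 of 26 in bulk tumors were above 0 in 2 or more. In IgG library 1 Ighv2-9-1 led with 8.34 TPM, 42.2% of its sum. In IgG library 2 Igkv10-96 was the only variable gene above 0, at 12.84 TPM, although Igkc was listed at 0 there. Of the 75-base windows of Igkv10-96, 20.0% also occur in another gene, most in Igkv10-94, so reads of near-identical genes may have been assigned to it. The leading genes of the anti-PD1 libraries were Ighv10-1 (1.93 TPM), Igkv10-96 (1.56 TPM) and Igkv1-135 (1.37 TPM).

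**Figure D3:**
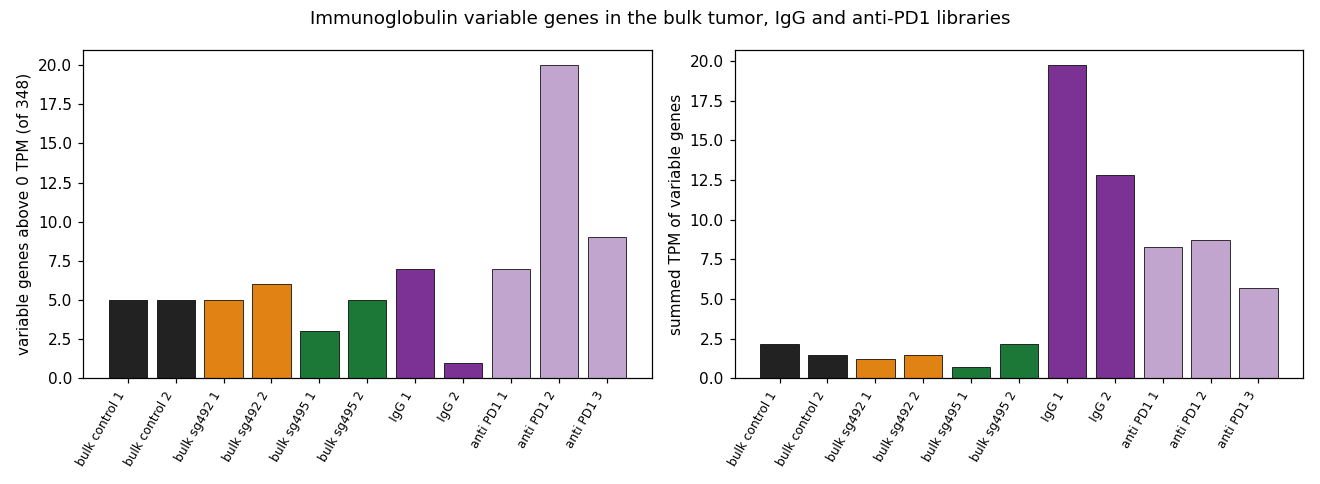
Number of immunoglobulin variable genes above 0 TPM (left) and their summed TPM (right) in each bulk tumor, IgG and anti-PD1 library. Bars are single libraries. The sums of the 5 IgG and anti-PD1 libraries (5.67 to 19.74 TPM) lie above those of bulk tumors (0.69 to 2.19 TPM), and IgG library 2 has a single variable gene.

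Other genes of mature B cells were described next. Of 20 genes outside the members, 11 table entries were tested, 9 were called higher (15.6% of all genes were) and none lower, with a median log2 fold change of 1.75. Genes near 0 in bulk tumors entered the test only through their level in the 5 libraries, so counts over these lists are descriptions. Over all 21 entries the median was 0.94, beside -0.10 for all genes above 0 TPM in any of the 11 libraries. Of these entries 9 were higher in all 5 libraries than in all bulk tumors. Among tested entries 8 were, beside 13.5% of all genes tested. Lower in all 5 were 2 entries, Ebf1, a transcription factor of early B cells, and Vpreb3. The share of all genes lower in all 5 was not computed. Ebf1 was at 0.90 to 2.11 TPM in bulk tumors and 0 to 0.72 TPM in the 5 libraries. Vpreb3 was at 0.13 to 0.45 TPM in bulk tumors and listed at 0 in the 5 libraries. Cd22, an inhibitory receptor of B cells, rose from 0.70 to 2.17 TPM in bulk tumors to 6.45 to 12.95 TPM (limma, log2 fold change 2.08, SE 0.151, adjusted p = 4.06e-06). Per 100 TPM of Ptprc, Cd22 was at 4.24 to 17.1 TPM in bulk tumors and 2.76 to 7.99 TPM in the 5 libraries. H2-DMb2 and H2-Ob, which serve antigen loading on MHC class II, rose by 3.22 and 2.08, and Cd37, a tetraspanin listed under 2 gene IDs, by 1.75 and 2.40. Cd72, a B cell surface receptor, rose by 0.73 and was at 14.64 to 20.31 TPM in cultured melanoma cells. Fcrla (1.74), Ralgps2 (2.22) and Btla (1.45) were also called, with Ralgps2 at 51.57 and Fcrla at 16.17 TPM in IgG library 2 and below 7 TPM in the other libraries. Ly6d (0.56, adjusted p = 0.199) and Spib (0.96, adjusted p = 0.0611) did not pass. Of 7 dendritic cell genes, 6 were called higher in the same comparison, with a median log2 fold change of 2.36. How much other cell types added to the rises of these B cell genes was not tested.

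Other B cell genes stayed low. Fcer2a followed the pattern of Ms4a1, with 0 in both IgG libraries and 0.33 to 0.54 TPM under anti-PD1. None of the 6 genes of B cell progenitors, such as Rag1, Rag2 and the surrogate light chain genes Vpreb1 and Igll1, exceeded 0.39 TPM in any of the 11 libraries.

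Downstream of the receptor, 10 signaling genes were tested, of which 9 were called higher and 1 lower (15.6% and 42.8% of all genes), with a median log2 fold change of 2.98. The kinases Syk (3.23), Lyn (3.11) and Btk (3.43), the adaptors Blnk (2.18), Pik3ap1 (3.61) and Dapp1 (1.43), the exchange factor Vav1 (3.61), Plcg2 (2.67) and Prkcb (2.86) rose, while Cd81, a tetraspanin, fell by 1.23 from 203 to 231 TPM to 54.0 to 124 TPM. Most of the 9 are also known from macrophages and other myeloid cells, whose marker list moved alike. All 8 macrophage genes were called higher, and their sum was 3341 to 5218 TPM against 242 to 552 TPM in bulk tumors. The share of other cell types in these changes was not tested.

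Among plasma cell genes 8 of 11 were tested, and 3 were called higher and 1 lower (15.6% and 42.8% of all genes). The median log2 fold change was 0.10. Prdm1 (2.21) and Irf4 (1.22), which encode transcription factors of plasma cells and T cells, and Tnfrsf13b (3.05), the receptor TACI, rose. Fkbp11, a chaperone of the secretory pathway, fell by 2.19 and stood at 48.3 to 57.0 TPM in cultured melanoma cells. Xbp1 (0.44) and Creld2 (-0.25) stayed under the fold limit. Tnfrsf17, which encodes the plasma cell receptor BCMA, was listed at 0 in all 23 libraries.

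Of 8 germinal center genes 5 were tested and 3 were called higher (15.6% of all genes were), Basp1 (3.30), Bcl6 (1.74) and Fas (2.33). The median was 1.74. Over all 8 it was 0.52, beside -0.10 for all genes above 0 TPM in any of the 11 libraries. S1pr2, at 29.8 TPM on average over the 11 libraries, had a log2 fold change of -0.01 (adjusted p = 0.928) and Mybl1 one of -0.64 (adjusted p = 0.116). Rgs13 was listed at 0. The 8 genes summed to 41.98 to 48.14 TPM in cultured melanoma cells, 59.85 to 72.45 TPM in bulk tumors and 195.3 to 492.91 TPM in the 5 libraries. What part other cell types had in these levels was not tested.

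The factors that attract B cells or sustain them divided. Of 8 genes 4 were tested, and 3 were called higher and 1 lower (15.6% and 42.8% of all genes). The cytokine genes Ltb (1.94), Tnfsf13b (BAFF, 1.02) and Tnfsf13 (APRIL, 1.19) rose, and Cxcl12, a chemokine of stromal cells, fell by 3.47 from 7.38 to 18.49 TPM to 0 to 0.22 TPM. The value for Tnfsf13 pools unlike groups, with a mean log2(TPM + 1) of 2.59 in anti-PD1 and 0.40 in IgG libraries. All 3 anti-PD1 libraries lay above both IgG libraries for Tnfsf13, an order whose share over all genes was not computed. Cxcl13, the chemokine of B cell follicles, was at 0.33 to 1.29 TPM in bulk tumors and at 0 to 0.20 TPM in the 5 libraries. Fibroblast genes summed to 340 to 958 TPM in bulk tumors and 13.6 to 73.2 TPM in the 5 libraries, and their part in these chemokine levels was not tested.

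**Figure D4:**
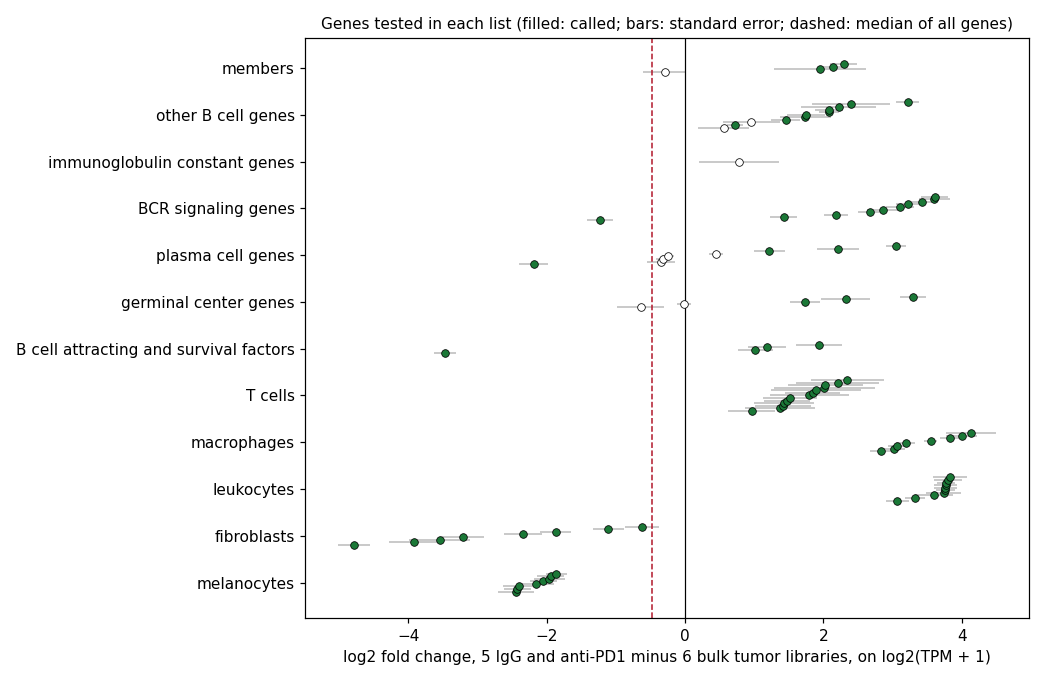
Log2 fold change (horizontal axis, log2(TPM + 1) scale) of the 5 IgG and anti-PD1 libraries against 6 bulk tumors for every tested gene of 12 lists. Filled points were called (adjusted p below 0.05 and at least 1.5-fold), bars are standard errors, and the dashed line is the median of all genes, -0.48. The 3 called members lie between 1.95 and 2.29, while all 10 leukocyte genes lie above 3.

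Anti-PD1 and IgG libraries were compared with each other, 3 against 2. No gene of 13418 was called by limma (0% in either direction), with 964 genes at an unadjusted p under 0.05, and when all 11 libraries shared a fit 6 genes were called higher and 4 lower. Without IgG library 1, 4 were called higher and 15 lower. Among the tested members, Ighm (-0.51, SE 0.288), Cd79b (-0.61, SE 0.348), Igkc (1.00, SE 1.16) and Cd79a (-0.51, SE 0.645) had log2 fold changes with adjusted p from 0.608 to 0.776. Ms4a1 and Ighd lay higher in all 3 anti-PD1 libraries than in both IgG libraries, and their exact permutation p of 0.10 (2-sided) is the smallest that 10 splits allow. Fitted without the expression minimum, both had an adjusted p of 0.722. Other B cell genes mostly went the other way, with 4 of 13 tested entries above 0 and a median log2 fold change of -0.52. Cd22 (-0.85), Cd72 (-1.12) and Btla (-0.66) lay lower in all 3 anti-PD1 libraries than in both IgG libraries, and Ly6d (1.77) lay higher. Leukocyte genes such as Tyrobp (-0.59) and Fcer1g (-0.55) also lay lower in all 3, while Ptprc overlapped. The share of all genes separating 3 against 2 was not computed, so these orders, also those of Ms4a1 and Ighd, are descriptions. Leukocyte genes had a median log2 fold change of -0.48 in this comparison, and none of the 10 was called. The direction for Igkc rested on IgG library 2, without which the value was -1.31.

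Loss of NR2F6 in the tumor cells was the main comparison of the study. Besides T cells, the paper's flow cytometry found the abundance of other immune cells unchanged, except for B cells. Its own test on counts called more genes for sg495 in bulk tumors than the fit here. The fit here has 2 against 2 bulk tumors. With sg495, 0.0293% of 13639 genes were called (3 higher and 1 lower), no member among them, and 2135 had an unadjusted p under 0.05. Without control replicate 1, 178 were called higher and 12 lower. Ighm had a log2 fold change of 1.38 (SE 0.281, unadjusted p = 0.00241, adjusted p = 0.105). Both sg495 tumors lay above both controls for Ighm, as for 31.6% of genes, and also for Cd79b and Igkc. Both lay below for Cd79a (-0.37, SE 0.241, limma, adjusted p = 0.533) and for Ighd (0.12 and 0.27 TPM against 0.29 and 0.28). The share of all genes lying below was not computed. With 2 against 2 an exact permutation test cannot go below p = 0.333. With sg492 no gene was called by limma (0%) and 1132 had an unadjusted p under 0.05, while 62 were called higher and 4 lower without control replicate 1. There Ighm had 0.55 (SE 0.281, adjusted p = 0.650) and Cd79a -0.13 (SE 0.241, adjusted p = 0.898). Both guides share the control tumors.

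The leukocyte gene Ptprc also differed between these tumors, from 9.29 and 5.74 TPM in control to 13.79 and 15.98 in sg492 and 18.16 and 26.21 in sg495. All 10 leukocyte genes were higher in both sg495 tumors than in both controls, as were 31.6% of all genes tested. Their median log2 fold change was 0.97 and none was called. Per 100 TPM of Ptprc, Ighm was at 44.5 and 49.3 TPM in control, 51.7 and 26.2 in sg492, and 49.4 and 47.4 in sg495. Cd79a per 100 TPM of Ptprc ran the other way, from 33.4 to 35.1 TPM in control to 13.3 to 16.9 in sg492 and 7.13 to 8.87 in sg495. Cd79a was also at 2.26 to 4.16 TPM in sorted tumor cells, so this ratio does not isolate B cells among leukocytes.

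Across the 11 libraries, genes among the 5 most like the mean log2(TPM + 1) of Cd79a, Cd79b and Ms4a1 were Tmem119 (Pearson r = 0.981), Gm10800 (0.980), Hdgfrp3 (0.976) and Acss1 (0.974). Those most like Igkc were Pcbd2 (0.968), Gm4707 (0.964), Fam151b (0.959), Paox (0.957) and Gm12902 (0.957). These are descriptions over points that fall into both sets and share their libraries. Within the 6 bulk tumors the r of Tmem119, Gm10800, Hdgfrp3 and Acss1 was 0.236 to 0.647. Among the genes like Igkc, Pcbd2 had 0.962 within bulk tumors and the other 4 were below 0.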

How the data were processed

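RNA-seq libraries were poly(A) selected, directional and read at 1 end over 75 bases at a depth of 23 to 31 (in units of 1e+06 reads), per the labels. The authors trimmed reads with Cutadapt (2.3), aligned them to mm10 with STAR (2.7.0d) and quantified genes with RSEM (1.3.1), per the submitters' processing notes, and deposited TPM to 2 decimals. Their own test, DESeq2 on estimated counts, was not repeated, since TPM keep no depth, so no counting interval is given. An exact 0 means only listed at 0.

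Here log2(TPM + 1) was fitted with limma 3.58.1 (R 4.3.3, eBayes with trend, 1 mean per group) on genes averaging 1 TPM or more, with Benjamini-Hochberg adjustment over all genes. Called means adjusted p below 0.05 and at least 1.5-fold, 2-sided. Such fold changes understate those of low genes. The contrast of 5 against 6 weights libraries equally. Single members were also tested by exact permutation. Gene positions and overlaps are from GENCODE M21 (99.1% of IDs matched). Members and gene lists were chosen with earlier results of these data known. Named genes are all members, and of other lists those called or among the 3 highest, plus others described at low levels, chosen after their values were seen. Some genes are not reported here. Alternatives varied pseudocount, minimum, scaling, block and libraries. The CAGGTG and CACGTG letters were also chosen after values were seen.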

Additional observations from a re-analysis of the deposited data

Results flagged for a closer look

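Sorted tumor cells were outside the comparisons, and 4 member values there exceeded the highest control of the same sample type by at least 1.5-fold at 0.5 TPM or more. In sg495 replicate 2, Igkc was at 1.03 TPM against at most 0.33 TPM in the sorted controls, and Jchain was at 0.53 TPM against at most 0.06 TPM. The variable genes of that library summed to 1.43 TPM, and Ighm was listed at 0. In sg492 replicate 1 Cd79a was at 4.16 TPM against at most 2.67 TPM, and in sg492 replicate 2 Pax5 was at 0.75 TPM against at most 0.30 TPM. The other replicate of each guide did not reach these limits. The 4 values have no test, and groups of 2 or 3 libraries were too small to check for outlying samples.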

How the results depend on the processing

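Against bulk tumors, the calls of Cd79b (log2 fold change 2.0 to 3.37) and Ighm (2.12 to 2.94) held under 21 alternatives each. Centering on leukocyte genes with a pseudocount of 0.1, a pair of changes added after seeing the data, turned Cd79b to -0.32, Ighm to -1.22 and Igkc to -1.59, and in IgG against control bulk tumors to -0.23, -1.01 and -3.89. It called 13021 and 12721 of 13893 genes lower (median log2 fold change -4.25 and -5.05). Cd79a, which was not called on TPM, turned to 0.0076 with quantile normalization. In IgG against control bulk tumors it turned to 0.10 with median-of-ratios scaling, 0.094 with quantile normalization and 0.12 without control replicate 1. Leaving out 1 library there gave -0.99 to 0.68 for Cd79a and -0.90 to 3.72 for Igkc, the latter turning without IgG replicate 1. For sg492 the range for Cd79a was -0.40 to 0.14, turning without control replicate 1, and for anti-PD1 against IgG it was -1.35 to 0.32 for Cd79a and -1.31 to 3.31 for Igkc, both turning without IgG replicate 2. For 5 against 6 the range for Cd79a was -0.58 to -0.15. The causes were not tested.

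Median-of-ratios scaling left 3298 genes lower in the 5 libraries, with 3067 higher, and quantile normalization 4015 lower and 2738 higher. In IgG against control bulk tumors, the same scalings gave 3173 higher and 3567 lower, and 2773 and 4203, against 2399 and 5343. Leaving out 1 library gave 2031 to 2334 higher and 5715 to 6194 lower for 5 against 6, and 1890 to 2820 and 4065 to 6056 for IgG against control.

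For sg495, genes called higher and lower were 0 and 0 without the expression minimum, 1 higher with a minimum of 5 TPM, 0 lower without trend, and 0 lower in the fit of 11 libraries. Leaving out 1 library gave 0 to 178 higher and 0 to 12 lower, the highest without control replicate 1. For sg492 a pseudocount of 0.1 gave 1 higher, and leaving out 1 library gave 0 to 62 higher and 0 to 4 lower, again highest without control replicate 1. For anti-PD1 against IgG, leaving out 1 library gave 0 to 4 higher and 0 to 15 lower, and the fit of 11 libraries 6 higher and 4 lower.

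Same-numbered libraries did not deviate together (r from -0.13 to 0.13), and the main fits did not pair them. With so few libraries in a group, this check cannot exclude a pairing. With a replicate block the counts were 0 higher and 0 lower for sg495, 0 and 0 for sg492, also with crossed numbers, and 208 higher and 306 lower for anti-PD1 against IgG, where no member was called. Replicate 3 occurs only under anti-PD1, so in that comparison the block makes no use of this library. For 5 against 6 the replicate block gave 2104 higher and 5600 lower, and for IgG against control 2416 and 5224. TPM hide depth, so values under 1 TPM have no known error.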
